A study of Mus musculus with 8 samples.

Results

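Polyamines are small positively charged molecules that bind RNA and proteins and that dividing T cells need in large amounts. Ornithine decarboxylase turns ornithine into putrescine, and a pair of synthases extend putrescine to spermidine and then spermine with groups taken from decarboxylated S-adenosylmethionine. Acetylation and oxidation break polyamines down again, and antizymes, whose translation polyamines promote, bind ornithine decarboxylase and send it to the proteasome. The genes described here are 9 genes of this machinery, chosen by symbol among the 24421 in the deposited counts, and others of it are also there. They are Odc1, Srm, Sms and Amd1 for synthesis, Sat1 and Smox for breakdown, and Oaz1, Oaz2 and Azin1 for control.

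RNA was sequenced from CD4+ T cells sorted out of digested knee joints of male mice, 16 weeks old, with antigen induced arthritis. The arthritis was common to all 8 libraries, of which 4 were wild type and 4 Slc7a5 knockout. Slc7a5 encodes the light chain of a large neutral amino acid transporter. Not given in the sources used here were the strain, how and in which cells the gene was deleted, and how many cells went into a library. Nothing in the labels ties a library to 1 animal, and p-values therefore measure only how these libraries vary, which may be partly technical.

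Library totals ran from 18837650 to 36436923 counts. Genes with at least 1 count numbered 7957 to 10139 in wild type and 5221 to 9358 in knockout. In wild-type replicates 1 to 4 Slc7a5 was listed at 385, 194, 410 and 0 counts, and it was at 0 in all 4 knockout libraries. Knockout replicate 4 stood apart: of 5387 genes seen in all the other libraries, 1584 (29.4%) were at 0 there, against 0.341% to 6.03% for each of the other 7 libraries in turn. That share was 2.98%, 6.03% and 0.86% in knockout replicates 1 to 3. It was 0.341% to 0.367% in wild-type replicates 1 to 3 and 4.23% in wild-type replicate 4. Spearman correlations of log2(CPM + 1) of knockout replicate 4 with the other libraries across genes ran from 0.489 to 0.544. Cd4, which defines the sorted cells, was at 34 counts in that library and at 6184 to 20518 counts in the other 7. Cd3e, a chain of the T cell receptor complex, had 7314 counts there, so the T cell label was borne out by Cd3e and hardly by Cd4.

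Antizyme synthesis depends on a shift of the ribosome by a base at a stop codon inside the coding sequence, a step that polyamines favour. The site is shown because the messenger level of an antizyme does not by itself give its protein. It was read from the GENCODE M21 transcripts of Oaz1, on chromosome 10. Of 6 coding transcripts, 1 was kept, in which no stop came before the first TCCTGAT in the frame of its TGA. Transcripts with an earlier stop in that frame were left out, so others may hold the site too. Capitals mark the last codon of the opening frame, its TGA stop and the base after it:
Oaz1 shift site: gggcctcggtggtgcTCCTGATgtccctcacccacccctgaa
The 28 codons before the stop in that transcript and frame hold no other stop.

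Promoter windows from RefSeq (GRCm38.p6), each running from 250 bases before a gene's start to 50 after it, were matched for 7 of the 9 genes in 8 windows. They are shown for Sat1, whose libraries separated by genotype, for Odc1, the enzyme at the entry to the pathway, and for Sms, of whose 2 windows the one with the motif CACGTG was picked. That motif, the same on both strands, is bound by MYC and related factors. Capitals mark CACGTG and the GC box GGGCGG on either strand, including overlapping matches:
Odc1, chr12:17544623-17544922, plus strand: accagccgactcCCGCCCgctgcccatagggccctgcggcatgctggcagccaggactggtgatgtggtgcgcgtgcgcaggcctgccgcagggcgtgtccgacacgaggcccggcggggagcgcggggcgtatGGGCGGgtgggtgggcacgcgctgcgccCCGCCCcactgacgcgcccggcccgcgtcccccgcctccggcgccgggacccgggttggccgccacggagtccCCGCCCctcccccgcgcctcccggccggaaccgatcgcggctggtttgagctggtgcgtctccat
Sat1, chrX:155216400-155216699, minus strand: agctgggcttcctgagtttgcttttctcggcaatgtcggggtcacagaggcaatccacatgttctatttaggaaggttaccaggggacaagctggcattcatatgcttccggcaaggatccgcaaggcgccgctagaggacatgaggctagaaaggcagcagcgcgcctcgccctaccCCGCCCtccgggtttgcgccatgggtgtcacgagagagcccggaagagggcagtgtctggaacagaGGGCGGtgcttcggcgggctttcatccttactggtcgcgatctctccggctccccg
Sms, chrX:157492238-157492537, minus strand: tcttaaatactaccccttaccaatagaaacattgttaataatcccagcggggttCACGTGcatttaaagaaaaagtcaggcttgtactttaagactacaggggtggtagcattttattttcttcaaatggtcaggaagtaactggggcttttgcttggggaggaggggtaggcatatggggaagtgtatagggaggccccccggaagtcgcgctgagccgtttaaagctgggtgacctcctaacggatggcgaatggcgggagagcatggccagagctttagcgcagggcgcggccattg
The Odc1 window held 4 GC boxes and the Sat1 window 2, while the Sms window shown held 1 CACGTG and 0 GC boxes. The other Sms window, chrX:157491319-157491618, is not shown, and held 0 CACGTG and 4 GC boxes at a GC content of 74.3%. Over the 8 windows, 1 held CACGTG and 6 held a GC box. Of the 32851 promoter windows searched, 7.15% held CACGTG and 35.7% held GGGCGG. GC content was 78.0% in the Odc1 window, 60.3% in that of Sat1 and 50.3% in the one of Sms. A match is a description of letters and not a bound site.

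The comparison of knockout with wild type asks whether T cells labelled as lacking this transporter gene carry other amounts of polyamine gene transcripts in the inflamed joint. Of the 9 genes, Sat1 alone had every knockout library above every wild-type library, with a mean 2.13 times that of wild type. Azin1 had a higher estimate that rested on a single knockout library, and the estimates of Odc1, Srm, Sms, Smox and Oaz2 lay within their errors. Amd1 and Oaz1 were listed at 0 everywhere. After adjustment over all genes tested, 0 genes of the 9 passed. Levels are given as CPM, the counts of a gene relative to its library's total after TMM scaling. Tests come from the quasi-likelihood method of edgeR, and a gene passed at a Benjamini-Hochberg adjusted p under 0.05.

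In that test 7 of the 9 genes passed the filter on low counts, and 0 of those 7 passed, as did 0 (0%) of 8489 genes (smallest adjusted p of all genes 0.437). At an unadjusted p under 0.05 there was 1 gene of the 7, Sat1, against 3.84% of all genes tested in either direction and 1.87% with higher estimates. DESeq2 called 387 of 10659 genes (3.63%) and 0 of the 9. limma voom called 4 of 8489 genes (0.0471%), limma voom with library quality weights also 4, and 0 of the 9 in either. Of the 7, 4 had higher and 3 lower estimates, and their median log2 fold change was 0.06. Over all genes tested 3817 had higher and 4672 lower estimates, with a median of −0.12. Every knockout library lay above every wild-type library for 1 of the 7 (1.52% of all genes tested), and below for 0 of the 7 (4.62%).

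**Figure D1:**
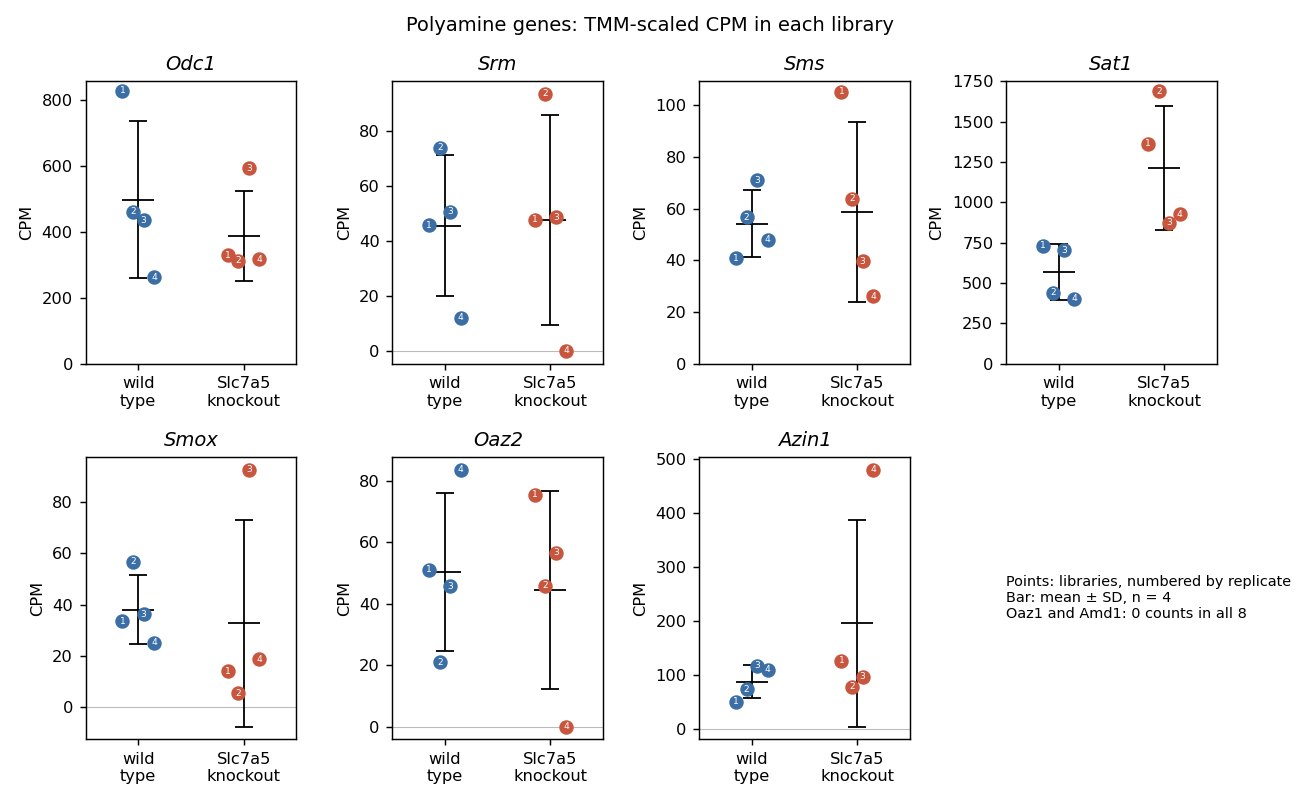
CPM after TMM scaling of the 7 polyamine genes with counts (linear vertical axes, each panel on its own scale) in 4 wild-type and 4 Slc7a5 knockout libraries; points are libraries numbered by replicate and bars are mean ± SD. The 4 Sat1 values of knockout, 873 to 1687 CPM, lie above the wild-type values of 402 to 732 CPM, and the groups overlap for the other 6 genes.

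Odc1, ornithine decarboxylase and the rate-limiting step of synthesis, lies on chromosome 12 from 17544794 to 17551505 (GRCm38, GENCODE M21). It was at 829, 462, 435 and 263 CPM in wild-type replicates 1 to 4 and, in the same order, at 329, 313, 594 and 317 CPM in the knockout libraries. Knockout replicate 3 was above 3 of the wild-type libraries, the other 3 knockout libraries lay close together, and the groups overlapped. The means were 497 ± 238 and 388 ± 137 CPM (SD, n = 4 each), with a log2 fold change of −0.36 (SE 0.36, edgeR adjusted p = 0.9999). The lower estimate rested on wild-type replicate 1, the highest of all, since without it the log2 fold change was 0.0044. Without knockout replicate 3 it was −0.63. With an offset for transcript GC content, which moved the median over all genes by 0.29 to 0.17, it was 0.22, so relative to that median the sign for Odc1 turned as well.

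The synthases that act after Odc1 in the pathway were less abundant than it per kilobase of transcript. Srm, spermidine synthase, lies on chromosome 4 from 148591503 to 148594993. It was at 45.6, 73.8, 50.6 and 12.1 CPM in wild-type replicates 1 to 4 and, in the same order, at 47.6, 93.3, 48.6 and 0.104 CPM in the knockout libraries. Replicate 4 was the lowest library in each genotype, with 275 counts in wild type and 2 counts in knockout, and the remaining 3 libraries of each genotype overlapped. The log2 fold change was 0.06 (SE 1.46, adjusted p = 0.9999 in edgeR), and its sign turned with single libraries left out, to −0.25 when wild-type replicate 4 was removed and to −0.53 when knockout replicate 2 was.

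Sms, spermine synthase, lies on chromosome X from 157443855 to 157492287. Its levels were 40.9, 56.8, 70.9 and 48.0 CPM in wild-type replicates 1 to 4 and 105, 63.9, 39.6 and 26.1 CPM in knockout replicates 1 to 4. Knockout spanned a wider range than wild type and lay on both sides of it, at 58.7 ± 34.8 against 54.2 ± 12.9 CPM (SD, n = 4 each). The log2 fold change was 0.12 (SE 0.97, edgeR adjusted p = 0.9999), and −0.32 without knockout replicate 1, which had the highest level.

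Amd1, S-adenosylmethionine decarboxylase, supplies the groups that both synthases add. It lies on chromosome 10 from 40287458 to 40302186 and was listed at 0 counts in all 8 libraries, as was its near copy Amd2. A count of 0 allows up to 3 counts per library, or 0.0834 to 0.167 CPM, and this limit covers counting error only. Of the 3155 different stretches of 50 bases in its longest coding transcript, 87.6% also occur in transcripts of other genes, and 86.1% in those of Amd2. The sources used here do not say how reads that match several places were counted, and the part of shared sequence in the zeros was not tested.

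Among the breakdown genes, Sat1 separated the libraries by genotype. Sat1, the spermidine and spermine acetyltransferase that opens polyamines to oxidation and export, lies on chromosome X from 155213132 to 155216449. It was at 732, 441, 704 and 402 CPM in wild-type replicates 1 to 4 and, in the same order, at 1362, 1687, 873 and 927 CPM in the knockout libraries. All 4 knockout libraries were above all 4 wild-type libraries, and the gap between the lowest knockout and the highest wild-type library was smaller than the SD of either genotype. The means were 570 ± 172 and 1212 ± 385 CPM (SD, n = 4 each), with a log2 fold change of 1.09 (SE 0.29). The unadjusted p was 0.00259, the rank 43 of 8489 by p, and the edgeR adjusted p 0.460, so Sat1 did not pass.

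An exact permutation test of log2(CPM + 1), two-sided and unadjusted, gave p = 0.0286 for Sat1, the smallest that 4 against 4 libraries allow. Full separation of the genotypes gives this p by itself, so it repeats the separation and adds no further check. Of all genes tested, 1.52% had every knockout library above wild type and 4.62% every one below. The same test on the other 6 genes with counts gave p-values from 0.286 to 0.914 (n = 4 each, exact permutation). The log2 fold change of Sat1 stayed between 0.86 and 1.23 under the 20 alternatives, and was 1.18 without knockout replicate 4. With the GC offset it was 1.22. The Sat1 transcript lies at the percentile 25.4 of GC content among 4527 abundant tested genes.

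Sat1 is also a highly expressed gene of macrophages and other myeloid cells, and MHC class II transcripts differed between the libraries. A list of 14 MHC class II and myeloid markers, 13 of which had counts, summed to 3249, 1614, 1454 and 1563 CPM in wild-type replicates 1 to 4. In knockout replicates 1 to 4 it summed to 9061, 10166, 2267 and 11282 CPM. Knockout replicate 3 lay within the wild-type range of that sum, and its Sat1 level of 873 CPM was above all wild-type libraries. Knockout replicate 4 had the highest marker sum and the second lowest Sat1 level of the knockout libraries. Other libraries had both high: knockout replicates 1 and 2 held the highest Sat1 levels, 1362 and 1687 CPM, at sums of 9061 and 10166 CPM. Wild-type replicate 1 had the highest sum of wild type, 3249 CPM, and its highest Sat1 level, 732 CPM.

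The 4 MHC class II genes made up 73.7% to 97.2% of that sum in each library. Among them Cd74, the invariant chain of MHC class II, was at 881 to 1969 CPM in wild type and 1434 to 7352 CPM in knockout. The other 10 genes of the list, the myeloid ones, summed to 290 to 412 CPM in wild type and 281 to 450 CPM in knockout, so the genotypes overlapped there. Lyz2, the lysozyme of macrophages and neutrophils, was at 22.03 to 25.7 CPM in wild type (804, 711, 798 and 499 counts in replicates 1 to 4). In knockout it was at 0 counts in replicates 1 and 2, at 7 counts in replicate 4 and at 641 counts (25.5 CPM) in replicate 3, so 3 of the 4 knockout libraries lay below wild type. Cd14 was also at 0 counts in knockout replicates 1 and 2. Knockout replicates 1, 2 and 4 had the fewest genes detected of that genotype, and the part of that in these low counts was not tested. Itgam had counts in wild-type replicates 1 and 2 only (595 and 59), and Itgax in wild-type replicate 1 only (713). Others went the other way. Csf1r was at 0 counts in all wild-type libraries and at 44.3 and 21.9 CPM in knockout replicates 2 and 3. Tyrobp was highest in knockout replicate 4, at 70.8 CPM. Ctss, the largest part of that sum in every library, was at 176 to 240 CPM in wild type and 185 to 320 CPM in knockout. Fcer1g and Cd68 overlapped. Adgre1, the macrophage marker F4/80, was at 0 counts in all libraries.

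The list of 10 T cell markers summed to 7969 to 11168 CPM in wild type and 6412 to 8615 CPM in knockout. Of these 10 genes, 9 had lower and 1 a higher estimate, with a median log2 fold change of −0.42 beside −0.12 over all genes. At an unadjusted p under 0.05 there were 3 of the lower ones and the higher one, Cd28, beside 3.84% of all genes tested. After adjustment 0 passed (edgeR). Of the 14 MHC class II and myeloid markers 10 were tested, 7 with higher and 3 with lower estimates. At an unadjusted p under 0.05 there were 4 of these, all higher, and 0 passed after adjustment. B cell markers summed to 0 to 8.12 CPM in wild type and 0 to 39.6 CPM in knockout. CD8 T and natural killer markers summed to 0 to 57.7 CPM in wild type and 7.61 to 264 CPM in knockout. The sums of neutrophil, synovial fibroblast, endothelial and skeletal muscle markers overlapped between the genotypes as well. The part of other cells in the Sat1 difference was not tested beyond these values. In sorted bulk samples, more RNA of a gene per cell and more cells that express it cannot be told apart.

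**Figure D2:**
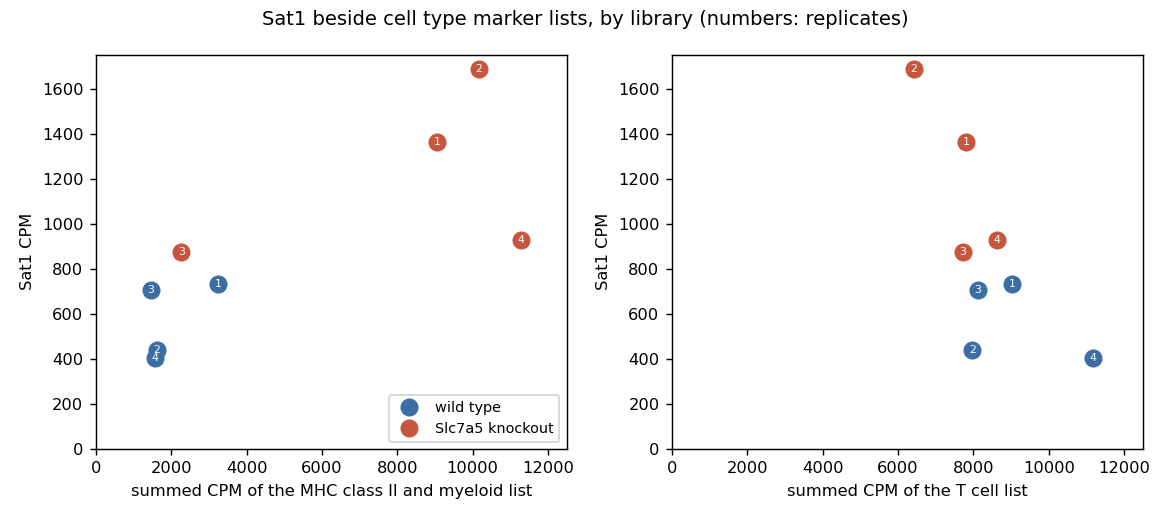
Sat1 level (vertical axis, CPM) against the summed CPM of the MHC class II and myeloid marker list (left) and of the T cell marker list (right), 1 point per library numbered by replicate, blue for wild type and red for knockout. Knockout replicate 3 has an MHC class II and myeloid marker sum of 2267 CPM, inside the wild-type range of 1454 to 3249 CPM, with Sat1 at 873 CPM. Knockout replicates 1 and 2, at sums of 9061 and 10166 CPM, have the highest Sat1 levels, 1362 and 1687 CPM.

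Smox, the oxidase that turns spermine back into spermidine, lies on chromosome 2 from 131491496 to 131525922. It was at 33.5, 56.8, 36.3 and 25.0 CPM in wild-type replicates 1 to 4 and, in the same order, at 14.0, 5.50, 92.6 and 18.8 CPM in the knockout libraries. In knockout, 3 libraries lay below every wild-type library and replicate 3 above every one. The log2 fold change of −0.21 (SE 1.34, edgeR adjusted p = 0.9999) was therefore the balance of opposite values, and it was −1.57 without knockout replicate 3. Replicate 3 was also the knockout library with the highest Odc1 level, the lowest sum of MHC class II markers (1840 CPM) and the highest Lyz2 level.

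Control of the pathway was measured through Oaz2 and Azin1, as Oaz1 had no counts. Oaz1, the main antizyme, lies on chromosome 10 from 80826656 to 80829290 and was listed at 0 counts in all 8 libraries. Of its 1022 stretches of 50 bases, 52.2% also occur in the pseudogene Oaz1-ps, and the part of this sharing in the zeros was not tested. Sharing was 42.2% for Odc1, with 16 other genes, 28.7% for Sms, 12.0% for Oaz2, 7.28% for Sat1, 6.43% for Azin1, 2.40% for Srm and 0% for Smox. Zeros were common in the table, as 11572 of 24421 symbols were at 0 in every library, and those of Amd1 and Oaz1 do not by themselves show that the cells lacked these transcripts.

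Oaz2, a second antizyme, lies on chromosome 9 from 65668001 to 65690300. It was at 51.1, 20.99, 45.8 and 83.7 CPM in wild-type replicates 1 to 4 and, in the same order, at 75.6, 45.8, 56.6 and 0 CPM in the knockout libraries. Outside knockout replicate 4 the knockout values lay within the wild-type range. In knockout replicate 4, 0 counts allow up to 0.157 CPM, a limit that covers counting error only. Of the genes seen in all other libraries, 29.4% were at 0 in that library. The log2 fold change was −0.18 (SE 1.57, edgeR adjusted p = 0.9999), and 0.22 without that library.

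Azin1, the antizyme inhibitor, resembles ornithine decarboxylase without its activity and binds antizyme in its place. It lies on chromosome 15 from 38487427 to 38519266. Its levels were 50.1, 73.4, 117 and 109 CPM in wild-type replicates 1 to 4 and 126, 77.4, 96.8 and 480 CPM in knockout replicates 1 to 4. Knockout replicate 4 was far above every other library, and the other 3 knockout libraries overlapped the wild-type values. The log2 fold change was 1.16 (SE 0.63, edgeR adjusted p = 0.9999), and 0.18 without knockout replicate 4, the library with the fewest genes detected. It was 1.81 with the GC offset, the Azin1 transcript lying at the percentile 3.71 of GC content, and 0.41 in limma voom with quality weights. Reads of Azin1 may include those of the antisense gene Gm49077, which overlaps it over 481 bases, the sources used here giving no strand setting for the counting.

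**Figure D3:**
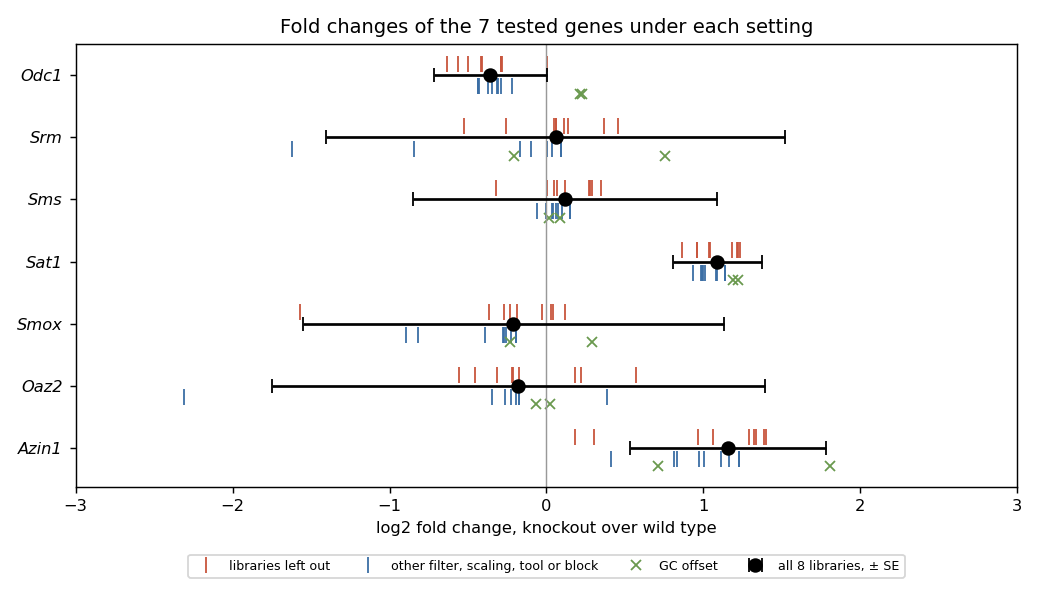
Log2 fold change of knockout over wild type (horizontal axis, positive is higher in knockout) for the 7 tested polyamine genes; black points with bars are the values with all 8 libraries ± SE, red ticks leave libraries out, blue ticks use another filter, scaling, tool or the replicate block, and green crosses apply the GC offset. Sat1 stays between 0.86 and 1.23, while Azin1 spans 0.18 to 1.81 and the other 5 genes lie on both sides of 0.

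Levels of different genes were compared per kilobase of the longest coding transcript. In wild type the order was Sat1 at 490 ± 148 CPM per kilobase, Odc1 at 225 ± 108, Srm at 34.0 ± 19.0, Oaz2 at 27.3 ± 14.0, Azin1 at 17.95 ± 6.44, Smox at 16.5 ± 5.85 and Sms at 14.6 ± 3.48 CPM per kilobase (SD, n = 4). Sat1 (346 to 630 CPM per kilobase) and Odc1 (119 to 376) overlapped narrowly, Odc1 and Srm (9.07 to 55.1) did not overlap, and the neighbours from Srm to Sms overlapped each other. In knockout Sat1 was at 1043 ± 331 and Odc1 at 176 ± 62.2 CPM per kilobase, without overlap, and the other 5 genes had means of 14.2 to 40.1 CPM per kilobase with overlapping ranges. Of these 7 genes, Odc1 and Sms share the most sequence with other genes, and the part of that in the order was not tested.

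Ratios of counts within a library do not depend on the scaling between libraries, and are given as a description without a test. The ratio of Sat1 to Odc1, breakdown over synthesis, was 0.882, 0.955, 1.62 and 1.53 in wild-type replicates 1 to 4. In knockout replicates 1 to 4 it was 4.14, 5.40, 1.47 and 2.92. Knockout replicate 3 fell within the wild-type range and the other 3 knockout libraries above it, and the medians were 1.24 and 3.53.

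Azin1 to Odc1 had medians of 0.214 in wild type (0.0604 to 0.416) and 0.316 in knockout (0.163 to 1.51), the highest value being that of knockout replicate 4. Azin1 to Oaz2 ran from 0.980 to 3.50 in wild type and from 1.67 to 1.71 in the 3 knockout libraries with Oaz2 counts. Srm to Sms ran from 0.253 to 1.30 in wild type and from 0.0040 to 1.46 in knockout. No ratio to Oaz1 could be formed.

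**Figure D4:**
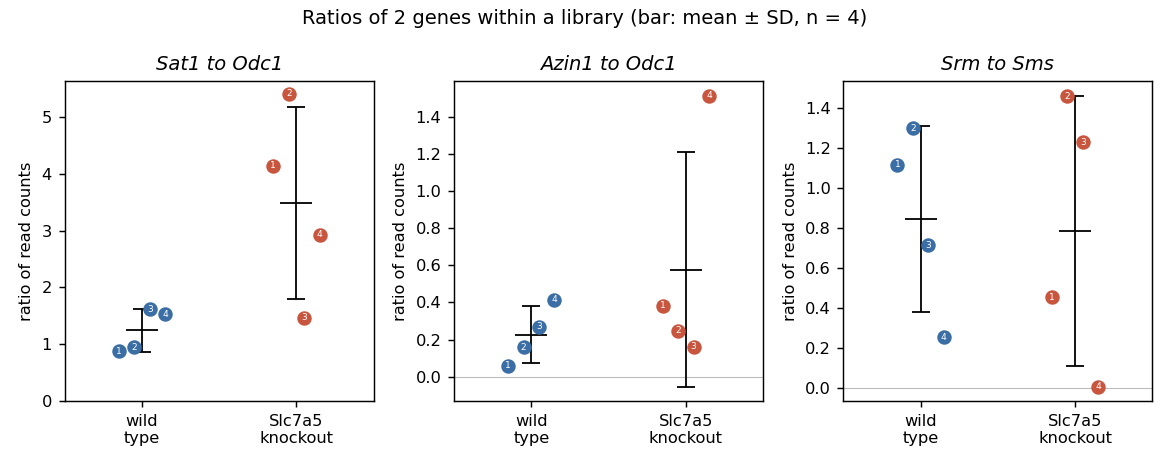
Ratios of read counts of 2 genes within each library (vertical axes, linear, no unit) in 4 wild-type and 4 Slc7a5 knockout libraries, with points numbered by replicate and bars at mean ± SD. Sat1 to Odc1 is 1.47 in knockout replicate 3, inside the wild-type range, and 2.92 to 5.40 in the other 3 knockout libraries.

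Myc, a transcription factor known to drive Odc1 and Srm, was at 151, 125, 52.7 and 149 CPM in wild-type replicates 1 to 4 and, in the same order, at 132, 183, 141 and 117 CPM in the knockout libraries. Wild-type replicate 3 was the lowest library and knockout replicate 2 the highest, and the genotypes overlapped. The estimate on the log2 scale was 0.26 (SE 0.47, edgeR adjusted p = 0.9999). Removing wild-type replicate 3 took it to 0.018, removing knockout replicate 2 to 0.097, and the GC offset to 0.87.

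Genes whose profile over the 8 libraries was most like that of a polyamine gene were taken by the mean absolute difference of log2 CPM deviations among 2848 genes with at least 10 counts in every library. For Sat1 they were Hnrnpdl (0.16), Sfpq (0.19) and Zscan26 (0.21), where the median over all candidates was 0.78. For Odc1 they were Cox5b (0.18), Rpl7a (0.19) and Tspan31 (0.19, median 0.71), and for Azin1 they were Adsl (0.22), Ttc1 (0.24) and Ube2e1 (0.25, median 0.83).

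Of 34 other genes around the pathway, 16 were tested, 9 were at 0 in every library and 0 passed. At an unadjusted p under 0.05 there were 0 as well. Estimates were higher for 7 and lower for 9 of the 16 tested, and their median log2 fold change was −0.09, beside −0.12 over all genes. The smallest unadjusted p-values belonged to Slc3a2, Eif5a and Mat2a.

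For the arginine and ornithine supply, 4 of 9 genes were tested, 1 with a higher and 3 with lower estimates. Arg1, the arginase that makes ornithine in macrophages, was at 207 counts in wild-type replicate 1, at 588 in knockout replicate 1 and 48 in knockout replicate 3, and at 0 in the remaining 5 libraries. The filter on low counts removed Arg1.

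In methylthioadenosine salvage and methionine supply, which returns the by-product of both synthases to methionine, 4 of 7 tested genes had higher and 3 lower estimates. Mat2a makes S-adenosylmethionine, the substrate of Amd1. It was at 48.7 ± 11.7 and 103 ± 70.7 CPM (SD, n = 4 each; log2 fold change 1.09, SE 0.79, edgeR adjusted p = 0.9999), and knockout replicate 1 held its highest level, 204 CPM.

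The hypusine pathway, which attaches a part of spermidine to the translation factor Eif5a, had 3 of 4 genes tested, all with lower estimates. Eif5a was the most abundant of them at 1419, 1610, 1798 and 1661 CPM in wild-type replicates 1 to 4 and, in the same order, at 1051, 1564, 1544 and 882 CPM in the knockout libraries. Knockout replicates 1 and 4 lay below all wild-type libraries and the other 2 within their range (log2 fold change −0.36, SE 0.22, edgeR adjusted p = 0.9999).

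Among polyamine transport genes, 5 of 9 were at 0 everywhere and 2 were tested. Slc3a2, the partner chain of Slc7a5 in the transporter, which has also been linked to polyamine export, was at 350, 340, 261 and 235 CPM in wild-type replicates 1 to 4 and, in the same order, at 406, 471, 378 and 407 CPM in the knockout libraries. Every knockout value exceeded every wild-type value, which held for Sat1 too and for 1.52% of all genes tested. Means were 296 ± 56.8 and 416 ± 39.4 CPM (SD, n = 4 each; log2 fold change 0.49, SE 0.25, edgeR adjusted p = 0.9999). An exact permutation test, two-sided and unadjusted, gave p = 0.0286, the smallest that 4 against 4 libraries allow. Full separation gives this p by itself. Atp13a3, a polyamine transporter, averaged 31.8 ± 21.3 CPM without and 47.7 ± 61.9 CPM with the deletion (SD, n = 4 each; log2 fold change 0.58, SE 1.81). None of the 5 other antizyme, acetyltransferase, decarboxylase and oxidase genes was tested, and Sat2, Satl1 and Amd2 were at 0 everywhere. Paox, the oxidase that acts on polyamines acetylated by Sat1, was listed at 327, 251, 693 and 3 counts in the 4 wild-type libraries, in order of replicate number. Of the knockout libraries, replicate 1 held 6 counts and the others 0, and the filter on low counts removed Paox. The part of genes lost in single libraries in these zeros was not tested.

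**Figure D5:**
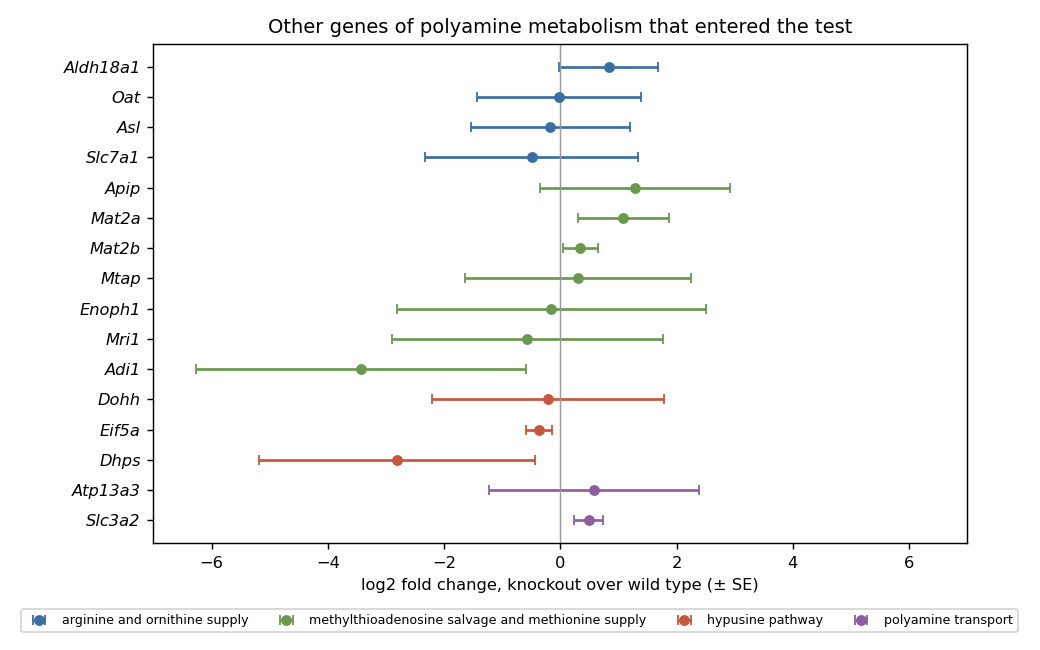
Log2 fold change ± SE of knockout over wild type (horizontal axis, positive is higher in knockout) for the 16 tested genes of arginine and ornithine supply, methylthioadenosine salvage and methionine supply, the hypusine pathway and polyamine transport, coloured by list. Slc3a2 at 0.49, Mat2b at 0.34 and Eif5a at −0.36 have the narrowest bars, and 0 of the 16 genes passed.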

How the data were processed

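The authors deposited a table of raw counts per symbol and library, not normalized. The submitters' processing notes name the mm10 build, edgeR 3.28.1, featureCounts and HISAT2 2.1.0. Not given in the sources used here were the annotation, the strand setting and the treatment of duplicates and of reads with several matches. From these counts, low ones were removed with filterByExpr (minimum count 10, minimum total 15) in edgeR 4.0.16 (R 4.3.3), libraries were scaled by TMM, and genotype was tested by the robust quasi-likelihood test over all 8489 genes left, with Benjamini-Hochberg adjustment over all of them. The SE was obtained by dividing the log2 fold change by the root of its F statistic. CPM uses effective library sizes. Single genes were also compared by exact permutation.

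The genes, lists, named-gene rule and alternatives were chosen with earlier results of these data known. The rule named all 9 polyamine genes, Slc7a5, Myc, Eif5a, Arg1, passing genes of the pathway lists or else the 3 with the smallest p, marker genes, and the 3 genes most like Odc1, Sat1 and Azin1. Further genes, such as Paox and Atp13a3, were named after their values were seen. Positions, transcript lengths, shared stretches of 50 bases and GC content (known for 96.6% of tested genes) came from GENCODE M21 (GRCm38), of which mm10 carries the coordinates, and promoters from RefSeq GRCm38.p6. Alternatives were DESeq2 1.42.0, voom of limma 3.58.1 with or without quality weights, 3 other scalings, a stricter filter or none, a block for the replicate number, the removal of each library in turn, a loess GC offset (span 0.75), the offset with the block, and an adjusted p under 0.1. The removal of both replicates 4, the ratios of Azin1 to Odc1 and to Oaz2 and the separate sums of MHC class II and myeloid markers were added after the data were seen. The scripts were tested on simulated data, in each run with 200 of 8489 genes changed, 100 by a factor of 2 and 100 by a factor of 4. With the dispersion (spread between libraries) fitted from these counts, 0% of the changed genes were recovered when levels differed by a factor of 2. By a factor of 4, 5% were recovered. At a dispersion set to 0.1 the shares were 30% and 97%. That 0 genes passed therefore does not show that differences of these sizes were absent.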

Additional observations from a re-analysis of the deposited data

Results flagged for a closer look

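Within a genotype, 4 values stood far from the other 3 libraries by Dixon's criterion on the gap relative to the range, of 23 groups of 4 values examined. Chance flags about 1 in 20 if values are normal and groups independent. The groups here were CPM without a log and ratios of the same genes, so that rate is only a rough guide. All 4 were in knockout. Odc1 was at 594 CPM in knockout replicate 3, where the other 3 libraries were at 313 to 329 CPM, and Smox was at 92.6 CPM in the same library against 5.50 to 18.8 CPM in the other 3. Azin1 was at 480 CPM in knockout replicate 4, against 77.4 to 126 CPM in the other 3. The ratio of Azin1 to Odc1, 1.51 in that library, was flagged as well, and rests on the same Azin1 counts.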

How the results depend on the processing

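The count of polyamine genes called was 0 under all 21 alternatives. The count of all genes called was 0 in edgeR under every alternative, also with any single library left out, 387 in DESeq2, 4 in limma voom and 4 in limma voom with quality weights; the cause was not tested. Sat1 and Azin1 kept their direction under all 20 alternatives, Sat1 at 0.86 to 1.23 with single libraries left out and Azin1 at 0.18 to 1.40. The signs of the other 5 genes, none of which passed, turned as follows. With single libraries left out, Odc1 ran from −0.63 to 0.0044, Srm from −0.53 to 0.46, Sms from −0.32 to 0.35, Oaz2 from −0.56 to 0.22 and Smox from −1.57 to 0.12. Library totals gave Srm −0.097, but moved the median over all genes by −0.097. Relative to that median, Srm was 0.18 with all settings as reported and 0.12 with library totals, and did not turn. The GC offset gave Odc1 0.22, Oaz2 0.023 and Smox 0.29. Relative to the median, which it moved by 0.29, it took Odc1 from −0.23 to 0.052, Smox from −0.090 to 0.11 and Sms from 0.24 to −0.084, while Oaz2 was −0.057 and −0.15 and did not turn. limma voom gave Srm −1.62 and Sms −0.0022, and with quality weights Srm was at −0.17 and Oaz2 at 0.38. Without both replicates 4, Oaz2 was at 0.57. The stricter filter removed Srm and Oaz2.

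With the replicate block, Srm was at −0.85, Sms at −0.063 and Sat1 at 1.09, and 0 genes were called. With the GC offset and the block together, Odc1 was at 0.22 and Srm at −0.20. Deviations of libraries with the same number correlated at −0.022, 0.018, 0.021 and 0.053 for numbers 1 to 4. Those of libraries with different numbers correlated at −0.061 to 0.052. The labels do not say how the numbers were given, and low correlations cannot show that same-number libraries have nothing else in common. A shared batch or pairing was not tested further.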
